A study of Mus musculus with 2 samples.

Results

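The protein part of the cytosolic ribosome was compared between sorted bone marrow KSL cells of Nrf2-/- (knockout) and Nrf2+/+ (wild-type) mice. A gene was a member when a probe set of the array had exactly 1 gene symbol in the platform annotation and that symbol was an Rpl or Rps name with its number, 1 of the stalk genes Rplp0 to Rplp2, or Rpsa; pseudogenes were left out and the probe sets of a gene were averaged. This gave 61 of 19938 measured genes, 38 of the large and 23 of the small subunit, through 217 probe sets. KSL cells, in the usual sense of the name, are lineage-negative, Sca-1-positive and c-Kit-positive marrow cells, the fraction that holds the blood stem cells along with multipotent progenitors. NRF2, the transcription factor encoded by Nfe2l2, drives antioxidant genes; the wild type was the control. Both groups were healthy C57BL/6J mice of 8 to 10 weeks, kept in a germ-free facility per the labels. Marrow of 5 mice per genotype was pooled before sorting, so 1 array per genotype stood for 5 mice. The sources used here do not give the deleted part of the gene.

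The cytosolic ribosome joins a small subunit, which reads the mRNA, to a large subunit, which forms the peptide bond. Their proteins are made in balance, and most of the mRNAs begin with a C and a run of pyrimidines, the 5′ terminal oligopyrimidine (TOP) tract through which mTOR signalling controls their translation. Blood formation is sensitive to this balance: loss of a single copy of any of several ribosomal protein genes causes Diamond-Blackfan anaemia, and free RPL5 and RPL11 bind MDM2 and so stabilise p53.

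Values are log2 intensities, and each difference is the log2 value of the array labelled knockout minus that of the wild-type array. With 1 array per genotype there was no replicate check, no p-value was computed, and the number of arrays limited the precision. Nfe2l2 stood at 9.07 on the array labelled knockout and 9.16 on the wild-type array, so the probe set did not separate the arrays by the labelled deletion. A probe set outside the deleted part checks nothing, and directions below are those of the arrays as labelled. Of the 10 KSL and progenitor markers measured, 9 passed the level filter described below, 5 higher and 4 lower on the array labelled knockout. They ran from Meis1 at 11.09 against 10.74 to Mecom at 7.54 against 7.99. Slamf1 did not pass and was higher, at 6.43 against 5.73, a difference of 0.71 and larger in size than any of the 9. Kit stood at 11.21 against 10.93, and the Sca-1 gene Ly6a was not analysed here. All 10 neutrophil markers that passed the level filter were lower on the array labelled knockout, where 52.9% of all genes past the filter were. Retnlg, Mmp8 and Cxcr2 passed only through their wild-type values, since their values on the array labelled knockout lay below the filter level. Of those that did not pass, Mmp9 was lower, at 5.87 against 6.69, and Ly6g was higher, at 5.41 against 4.90. The summed linear intensity of the 12 listed was 6861 against 16282, or 42.1% of the wild-type sum. Of the monocyte or macrophage markers, 4 of the 5 that passed were lower, and the sum of the 7 measured was 78.5% of wild type. Among the 5, Fn1 passed only through its wild-type value, at 6.41 against 7.21, and Cd68 was higher, at 9.31 against 8.68. The sums were 90.1% for B lineage, 75.7% for T or NK and 76.6% for erythroid markers, with 3, 2 and 2 genes past the filter, and 111% for the KSL and progenitor markers. A sum is set mostly by its brightest genes, such as Car1 (erythroid, 8.54 against 9.29) and Nkg7 (T or NK, 9.28 against 9.76). Within these lists Slc4a1, Alas2, Epor, Klrb1c, Ncr1, Vpreb1, Pax5 and Ebf1 were higher on the array labelled knockout, all but Vpreb1 below the filter. Igll1 (B lineage, 6.47 against 6.67) passed only through its wild-type value. The part of these cell types in the results that follow was not tested. In pooled RNA, fewer cells of a type and less RNA per cell cannot be told apart.

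The TOP tract is read at the annotated start, and the windows below show that base at members that the results turn on and at 2 plain examples of the tract, Rpl28 and Rpl38. Of the 61 members, 49 had a promoter in the RefSeq table (build GRCm38.p6). A TOP-like start, here a C at the annotated start followed by at least 4 bases that are all C or T, was found in 10 of the 49 (20.4%) and in 3.01% of the 27025 genes in the table. Each window runs from 40 bases before the annotated start to 20 bases from it, 5′ to 3′ on the gene's strand, and capitals mark the TOP-like run. The first 6 have such a run, and the last 3 (Rpl10 and Rps27l, lower on the array labelled knockout, and Rps3a1, higher) do not.
Rpl28, chr7:4792925-4792984, plus strand: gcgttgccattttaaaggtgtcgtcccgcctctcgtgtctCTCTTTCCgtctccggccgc
Rpl38, chr11:114668540-114668599, plus strand: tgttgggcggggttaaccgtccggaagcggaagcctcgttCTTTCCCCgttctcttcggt
Rplp2, chr7:141447611-141447670, plus strand: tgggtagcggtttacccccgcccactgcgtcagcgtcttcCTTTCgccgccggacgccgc
Rps6, chr4:86857348-86857407, minus strand: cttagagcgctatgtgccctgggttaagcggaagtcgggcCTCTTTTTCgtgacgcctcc
Rps10, chr17:27635225-27635284, minus strand: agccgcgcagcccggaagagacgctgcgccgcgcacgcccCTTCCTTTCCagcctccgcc
Rps15a, chr7:118116128-118116187, minus strand: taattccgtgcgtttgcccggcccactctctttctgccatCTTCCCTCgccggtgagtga
Rpl10, chrX:74270776-74270835, plus strand: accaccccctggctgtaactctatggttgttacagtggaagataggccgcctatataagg
Rps27l, chr9:66946046-66946105, plus strand, the first of its 2 annotated starts in the table: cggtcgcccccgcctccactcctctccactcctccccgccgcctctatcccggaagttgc
Rps3a1, chr3:86142649-86142708, minus strand: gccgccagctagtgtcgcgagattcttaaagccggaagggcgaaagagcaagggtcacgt
An annotated start need not be the base at which transcription begins, so a window without capitals says only that the run is not at that base.

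The 2 arrays held the ribosomal protein genes at nearly the same level, with a small and widely shared lean toward lower values on the array labelled knockout. Of the 61 members, 58 passed the level filter, a mean of both arrays at or above the median over genes, 6.57; the other 3 were the paralogs Rpl3l, Rpl10l and Rpl39l. Among the 58, 48 were lower and 10 higher, where 52.9% of all 9970 genes past the filter were lower. The median difference was −0.047, against −0.020 over all genes past the filter. The lean depended on scaling: 40 of 58 members were lower after median centring, 35 after quantile normalization and 44 after loess, beside 49.4% of all genes under each of the last 2; median centring splits all genes evenly by construction. Of the other genes at a level of 11 or more, 43.1%, 39.3% and 45.0% were lower under these 3 scalings, and 47.3% as deposited. Under quantile normalization the median over the members was −0.013.

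The sizes were small. At a size of 1.2-fold, 2 of 58 members were lower, where 19.3% of genes past the filter were, and 0 were higher, where 12.8% were. At 1.5-fold, 0 of 58 were lower and 0 higher, where 4.3% and 2.34% of genes were. The median absolute difference was 0.060 over the members and 0.17 over the other genes past the filter. The members' differences spanned −0.28 to 0.15, a range that held 58.6% of the 9912 other genes past the filter and 80.8% of the 260 other genes at a log2 level of 11 or more. Within 0.1 of equality lay 43 of the 58 members, where 31.9% of all genes past the filter and 54.2% of the other genes at 11 or more did. Of the members, 13 were lower by more than that and 2 higher by more than that. The lower and upper quartiles of the members' differences were −0.099 and −0.012. Those of the 260 other genes at 11 or more were −0.089 and 0.089, so the sets were alike on the lower side and differed on the upper.

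**Figure D1:**
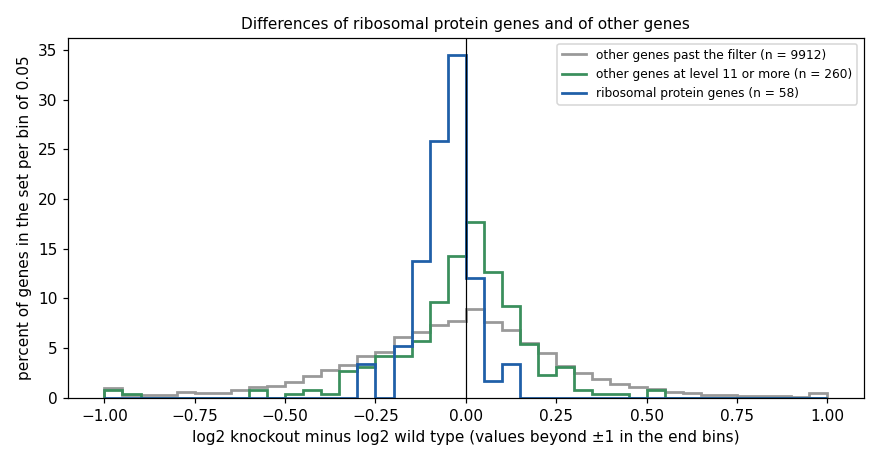
Percent of genes (vertical axis) in each bin of 0.05 of the log2 difference, knockout minus wild type (horizontal axis), for the 58 ribosomal protein genes, the 260 other genes at a level of 11 or more and all 9912 other genes past the filter. The ribosomal protein genes form the narrowest outline, with most of it just below 0.

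Genes of high level differed less between the arrays, so the members were also set beside genes at or above 11 on the log2 scale, a level chosen after the values were seen. Of the 50 members at or above 11, 41 were lower, where 52.9% of the 310 genes at that level were; of the 260 without the members, 123 were lower. By 1.2-fold, 1 of the 50 was lower, where 7.42% of genes at that level were, and 0 were higher, where 3.55% were. The 260 other genes had a median of 0.0069 and a median absolute difference of 0.089, still wider than the members' 0.060. The ribosomal protein genes also made up much of the top of the scale: of 1009 probe sets with a mean of at least 11, 421 (41.7%) named a ribosomal protein gene of the rule, alone or with other symbols.

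Between the subunits, the large subunit lay slightly lower. Its median was −0.056 over 35 genes, with 30 lower and 5 higher, and that of the small subunit was −0.021 over 23 genes, with 18 lower and 5 higher. Of all genes past the filter 52.9% were lower, and of the other genes at 11 or more 47.3%. These counts are of the values as deposited, and the lean over both subunits depended on scaling, as given above. The large minus small difference of medians was −0.035, with an SD of differences among genes of 0.069 in the large and 0.085 in the small subunit; the error of this difference of medians was not estimated. It was −0.0049 when probe sets with several symbols were added and −0.016 after quantile normalization. The subunits' ranges, −0.28 to 0.072 and −0.27 to 0.15, overlapped over nearly their whole length.

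**Figure D2:**
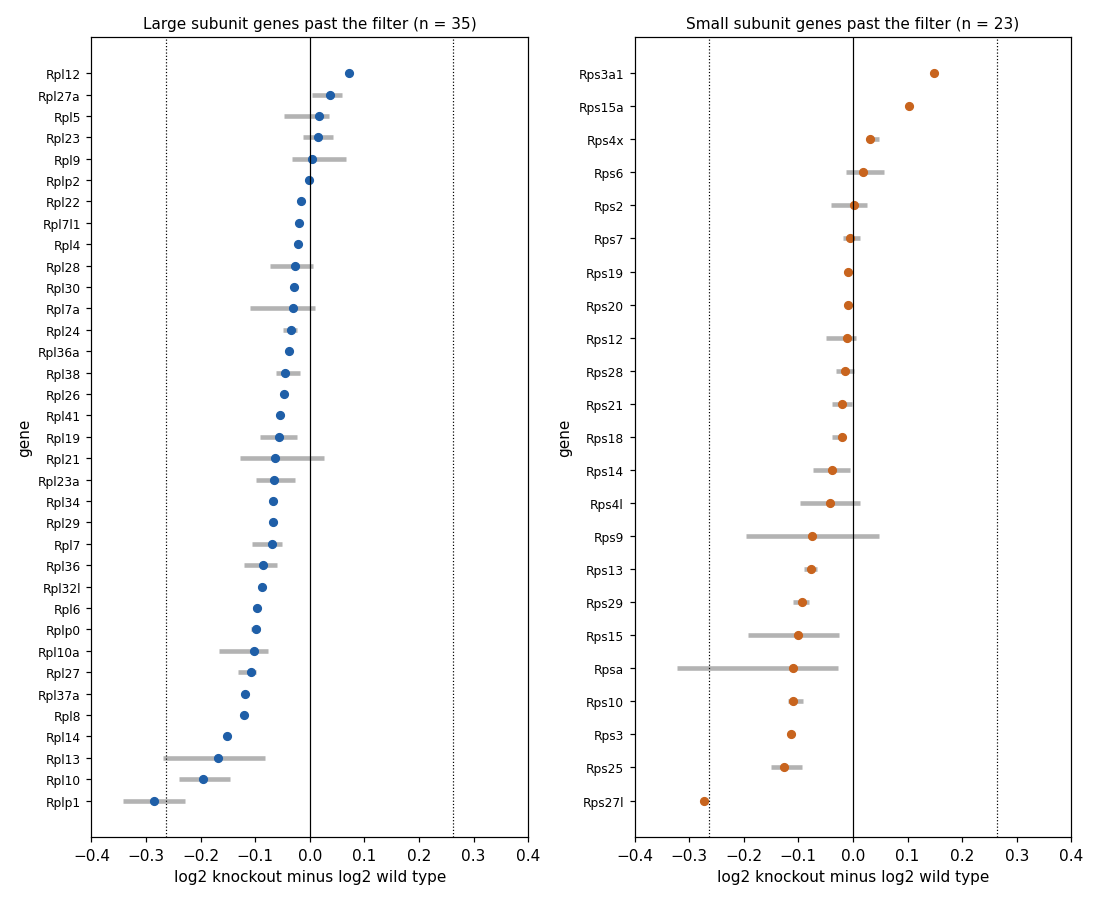
Log2 knockout minus log2 wild type (horizontal axis) for each member past the filter, large subunit on the left and small subunit on the right; points are means over probe sets, grey bars the range over the probe sets of a gene, and dotted lines mark 1.2-fold. Points past a dotted line are Rplp1, on the left, and Rps27l, on the right.

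The acidic stalk of the large subunit, which recruits translation factors, gave the lowest member past the filter. Rplp1, a stalk protein that works in dimers with RPLP2, stood at 11.97 on the array labelled knockout and 12.26 on the wild-type array, a difference of −0.28 or 82.1% of wild type. Both of its probe sets were lower, with differences of −0.34 and −0.23, and with the probe set of higher mean it no longer reached 1.2-fold. Rplp0, which anchors the stalk on the large subunit, stood at 12.33 against 12.43, a difference of −0.099, and its 2 probe sets gave −0.11 and −0.091. Rplp2 was level, at 11.17 on each array with a difference of −0.0015, a size at which a shift of the whole array sets the sign. The dimer partners thus differed in their offset, although Rplp2 had only 1 probe set.

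Of the rest of the large subunit, the lowest were Rpl10, Rpl13, Rpl14 and Rpl8. Rpl10, a late-joining protein needed for the subunit to mature, stood at 12.13 against 12.33, a difference of −0.20, and all 6 of its probe sets were lower, between −0.24 and −0.15. Rpl13 stood at 12.07 against 12.24, a difference of −0.17 over 9 probe sets that ranged from −0.27 to −0.083. Rpl14 stood at 11.33 against 11.48, a difference of −0.15 from 1 probe set. Rpl8, which lies near the peptide-forming centre, stood at 11.95 against 12.07, a difference of −0.12 from 1 probe set. For Rpl10 and Rpl13 the direction was thus repeated by each single-symbol probe set of the gene; a probe set that names Rpl13 with Snord68 was higher, at 7.07 against 6.72. The remaining large subunit genes past the filter that were lower by more than 0.1, named after their values were seen, were Rpl37a at −0.12, Rpl27 at −0.11 and Rpl10a at −0.10; all 4 probe sets of Rpl27, between −0.13 and −0.099, and all 4 of Rpl10a, between −0.17 and −0.077, were lower.

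The highest of the large subunit past the filter were close to 0. Rpl27a stood at 12.19 against 12.15, a difference of 0.036, and was above 0 in all 9 probe sets, between 0.0033 and 0.059. Rpl5 stood at 11.87 against 11.85, a difference of 0.017 over 5 probe sets that ranged from −0.047 to 0.035. Rpl23 stood at 12.16 against 12.14, with its 2 probe sets at −0.012 and 0.043. Rpl5 and Rpl23, whose free proteins bind MDM2, thus had probe sets on both sides of 0, as did Rpl9, whose 8 probe sets ran from −0.032 to 0.066 around a mean difference of 0.0033. The highest past the filter, Rpl12, rested on a lone probe set at 7.44 against 7.37, a difference of 0.072, and 8 probe sets that name Rpl12 with other symbols had a median difference of −0.061.

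In the small subunit Rps27l was the lowest. RPS27L is a paralog of RPS27 and a known p53 target; it stood at 9.88 on the array labelled knockout and 10.16 on the wild-type array, a difference of −0.27 or 82.7% of wild type, from 1 probe set. After median centring it fell short of 1.2-fold. Rps27 itself was no member, since its 2 probe sets also name Rps27rt; they stood at a mean of 11.56 against 11.79, with differences of −0.23 and −0.22, so Rps27l was the lowest small subunit gene among single-symbol probe sets and Rps27 among several-symbol ones.

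Next came Rps25, whose protein is used in initiation at internal ribosome entry sites, at 11.86 against 11.99, a difference of −0.13 with all 6 probe sets lower, between −0.15 and −0.093. Rps3, whose protein lies at the mRNA entry channel, stood at 11.84 against 11.96, a difference of −0.11 from 1 probe set. Rps10 stood at 12.01 against 12.12, a difference of −0.11, and its 3 probe sets lay between −0.12 and −0.092. Rpsa, whose product doubles as the laminin receptor, stood at 11.67 against 11.78, also −0.11, but its 5 probe sets ran from −0.32 to −0.028 and the one of highest mean gave −0.028. The sizes for Rps25 and Rps10 were thus better repeated among probe sets than that for Rpsa.

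The highest of the small subunit was Rps3a1, at 12.09 against 11.94, a difference of 0.15. Rps15a followed with a difference of 0.10. Rps4x stood at 12.81 against 12.78, a difference of 0.031, and was above 0 in all 5 probe sets, between 0.026 and 0.048. Rps6, whose product is the substrate of S6 kinase, stood at 12.91 against 12.89, a difference of 0.019 over 8 probe sets from −0.012 to 0.057. Rps2 differed by 0.0026. Rps3a1 and Rps15a had 1 single-symbol probe set each, and the probe sets that name them with other symbols gave medians of −0.012 and −0.069, so their height was not repeated.

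Genes linked to Diamond-Blackfan anaemia or, for Rps14, to the 5q- syndrome lay within the range of the other members. Rps19, the gene most often mutated in the anaemia, was level, with a difference of −0.0087 from 1 probe set, and its 3 several-symbol probe sets had a median of −0.11. Rps14 stood at 12.67 against 12.71 and Rps7 at 12.33 against 12.34. Rps10 was at 92.7% of wild type. Rpl11, Rpl35a, Rps24 and Rps26 were reached only through probe sets with several symbols, with median differences of −0.068, 0.064, −0.016 and −0.072.

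The paralogs, near copies of a core gene that are often limited to testis or muscle, gave the 3 members below the filter. Rpl10l, the testis copy of Rpl10, stood at 4.85 against 5.46, Rpl3l, the muscle copy of Rpl3, at 5.07 against 5.23, and Rpl39l, a testis copy of Rpl39, at 3.59 against 3.51. Weak signal makes a difference less sure, and the −0.61 of Rpl10l, the largest in size of all 61 members, lay below the filter. Rps4l, which passed, stood at 6.72 against 6.76, a difference of −0.042. Rpl7l1 stood at 8.45 against 8.47, a difference of −0.020, and its parent Rpl7 at 11.69 against 11.76, a difference of −0.068. The parents Rpl3 and Rpl39 were reached only through several-symbol probe sets, with median differences of −0.12 over 7 and −0.013 over 2. Rpl22l1 was reached only through several-symbol probe sets, at 10.24 against 10.23, and its parent Rpl22 stood at 11.01 against 11.02. Rpl32l, also named by the rule, stood at 8.00 against 8.09.

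How far the probe sets of a gene repeat each other bears on these small values. Over 38 members with several distinct probe sets, the pooled SD of the difference among probe sets of a gene was 0.040, against 0.37 over 625 other genes. The 2 sets were not matched by level: 50 of the 58 passing members lay at 11 or more, where genes differed less between the arrays. The 2 SDs therefore do not show that members were better repeated than other genes of their level. Of 39 passing members with several probe sets, 24 had every probe set below 0, 2 had every probe set above 0 and 13 had both signs. These probe sets were not independent, since 21 of the 217 shared both values exactly with another probe set of their gene, and all came from the same 2 RNA pools. Others nearly shared their values, such as 2 of Rpl5, each at 12.01 against 11.98. The SD covers probes only; mice, sorting and amplification add spread that these 2 arrays do not measure.

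Ribosomal protein genes have many processed copies in the genome, and 237 further probe sets named a ribosomal protein gene beside other symbols. Of these, 197 were lower on the array labelled knockout, where 52.4% of all probe sets past the filter and 50.5% of the 588 other probe sets at a level of 11 or more were. The 237 probe sets named only 35 genes (Rpl32 and Rpl32l counted as 1), with 35 for Rpl29 and 32 for Rpl21, so they were not independent. Their median was −0.058. They reached 17 genes that were not measured alone, counting Rpl32, which shared its probe sets with the member Rpl32l, as 1, with 12 of the large and 5 of the small subunit, and 15 of the 17 had a median below 0. By at least 1.2-fold in either direction 4 of the 237 differed, where 31.9% of all probe sets past the filter and 8.84% of those 588 did. All 4 were higher: a probe set named Rpl31 and Clpb at 9.60 against 6.76, and 3 that also name an intronic snoRNA, Snord34 in Rpl13a at 7.89 against 6.64, Snord68 in Rpl13 at 7.07 against 6.72 and Snord14a in Rps13 at 10.05 against 9.73. The other 8 probe sets naming Rpl31 lay between −0.029 and 0.013.

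**Figure D3:**
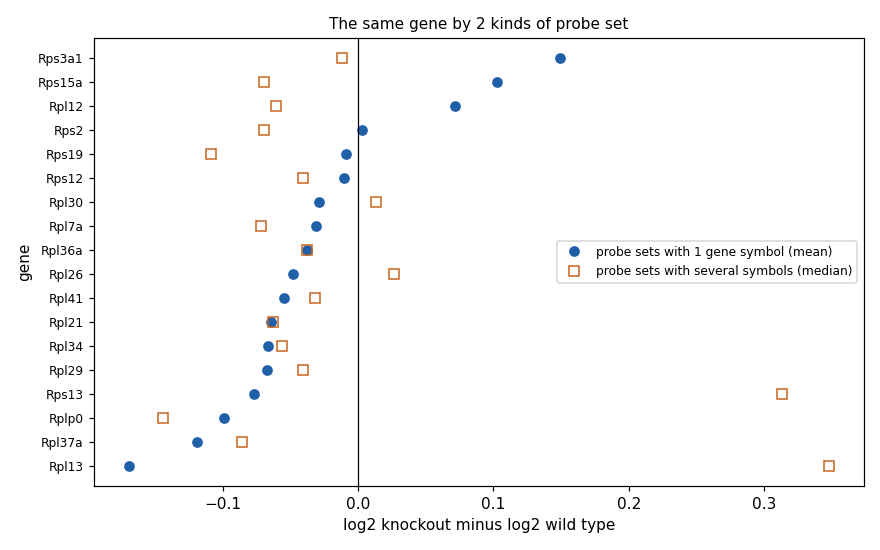
Log2 knockout minus log2 wild type (horizontal axis) for the 18 members with both kinds of probe set; filled points are the mean of single-symbol probe sets and open squares the median of several-symbol ones. Squares lie on the other side of 0 from their point for Rps3a1, Rps15a, Rpl12 and Rps2, which move below 0, and for Rpl30, Rpl26, Rps13 and Rpl13, which move above it; those of Rps13 and Rpl13 are the snoRNA probe sets at 0.31 and 0.35.

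Many ribosomal protein genes carry snoRNAs, guides for rRNA modification, in their introns. Of 13 measured snoRNA genes inside the annotated span of 10 members, 10 passed the filter, and 8 were higher and 2 lower, with a median of 0.31. Of all 9970 genes past the filter, 4635 were higher and 5272 lower. Snora33 inside Rps12 stood at 9.62 against 9.05 while Rps12 differed by −0.010. Snora3 inside Rpl27a stood at 11.76 against 11.21 while Rpl27a differed by 0.036, and Snord15b inside Rps3 differed by 0.54 while Rps3 differed by −0.11. Snora52 inside Rplp2 differed by 0.39 while Rplp2 was level. In the other direction, Snord16a inside Rpl4 stood at 7.59 against 8.40, and Snord42a inside Rpl23a differed by −0.35. The snoRNA genes as a class leaned the same way, with 32 of 42 higher and a median of 0.27, so the lean was found over the class, which includes the 10 inside members. Snord61, Snord35a and Snora69 of the class passed the filter only through the array labelled knockout, with wild-type values of 5.32, 5.60 and 5.77.

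The other parts of the machinery showed wider scatter and medians near 0. The lists were not matched to the members by level or by number of probe sets. Cytosolic translation factors had a median of −0.011 over 30 genes, 16 lower and 14 higher, where 52.9% of all genes past the filter were lower. By 1.2-fold or more 6 of the 30 were lower, near the 19.3% of genes past the filter that were. By that size 0 were higher, where 12.8% of genes were. The 6 lowest values were led by the initiation factor 3 subunits Eif3e at −0.44 and Eif3k at −0.36, and the highest were the helicases Eif4a2 at 0.21 and Eif4a1 at 0.099. Other mRNAs with a TOP tract had a median of −0.012 over 18 genes, 10 lower and 8 higher; Eif3e at −0.44 and Vim, which encodes vimentin, at −0.37 were lowest, and Gas5, a snoRNA host RNA, at 0.50 and the import receptor gene Ipo7 at 0.34 were highest. Fau, whose product is processed to the small subunit protein RPS30 but whose name the rule does not take, stood at 11.16 against 11.41, a difference of −0.25; it was named after its value was seen.

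Of 78 ribosome assembly factors, 39 were lower and 39 higher, and the median was 0.00026. Pes1, of the complex that processes large subunit rRNA, was lowest at −0.59, followed by Nol10 at −0.40, and the helicase gene Dhx37 at 0.51 and Wdr36 at 0.50 were highest. Of 22 genes for RNA polymerase I and its factors, 10 were lower and 12 higher, and the median was 0.0095, with Znrd1 at −0.54 and Polr1c at −0.39 lowest, and the second largest subunit gene Polr1b at 0.62 and Taf1d at 0.49 highest. Of 19 genes in a broad list headed as regulators of ribosomal protein genes, 9 were lower and 9 higher, around a median of 0.00. Zfp622 at −0.47 and Mxi1 at −0.28 were lowest, and Rps6kb2, which encodes an S6 kinase, at 0.28 and Mga at 0.27 were highest. The list also held Mdm2, and a place on it is not a shown role in regulating these genes. Each of these 5 lists therefore held genes that differed more than any cytosolic ribosomal protein gene past the filter, while its median lay nearer to 0.

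Mitochondrial ribosomal proteins, which serve the separate ribosome inside mitochondria, were the list with the lowest median of those past the filter apart from the 2 pseudogenes and the blood cell markers. Of 77 measured, 74 passed, 48 were lower and 25 higher, where 52.9% of all genes past the filter were lower. Their median was −0.12, against −0.020 over all genes past the filter. At 1.2-fold 20 of the 74 were lower and 3 higher, where 19.3% and 12.8% of genes past the filter were. At 1.5-fold 4 were lower and 1 higher, where 4.3% and 2.34% of genes were. Mrps18b stood at 7.59 against 8.88 and Mrpl48 at 7.98 against 8.85, the lowest, and Mrpl9 at 9.08 against 8.32 and Mrpl22 at 7.91 against 7.35 were highest. The SD between mitochondrial genes was 0.30, against 0.076 for the cytosolic members and 0.33 for all genes past the filter other than the members. These sets were not matched by level, and over the 260 other genes at 11 or more the SD was 0.21. Averaging also differed, with 217 probe sets for the 61 members and 21789 for all 19938 genes. No test of these differences was run. The only listed pseudogenes of cytosolic members with a symbol of their own, Rps19-ps3 and Rpl14-ps1, differed by −0.52 and −0.13.

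**Figure D4:**
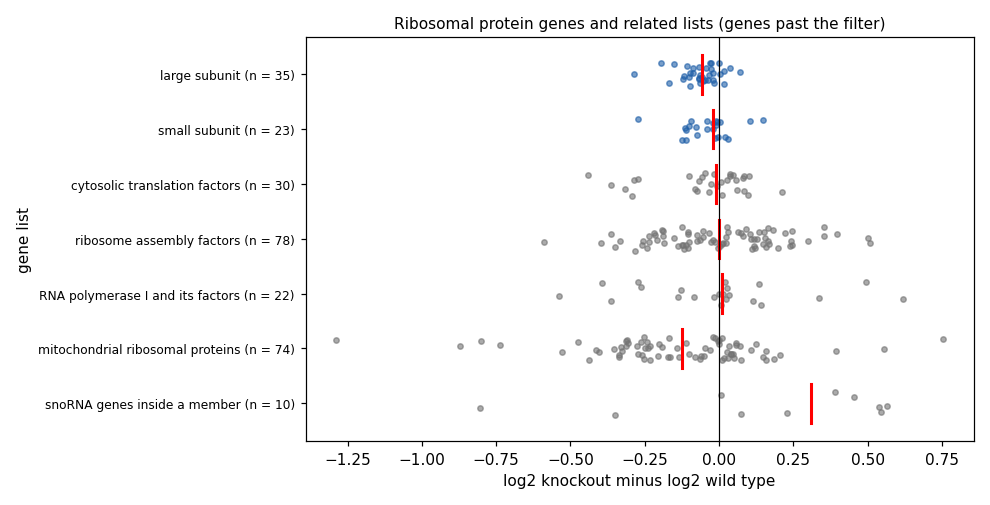
Log2 knockout minus log2 wild type (horizontal axis) of each gene past the filter in 7 lists (vertical axis); points are genes, shifted at random up or down for sight, and red bars are medians. Both cytosolic subunits form tight clusters just below 0, with medians of −0.056 and −0.021, while mitochondrial ribosomal proteins spread from −1.29 to 0.75.

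Promoter motifs were set beside the members' differences. Motifs were searched on both strands of the promoter, 250 bases before to 50 bases after the start, except TATAAA, on the gene's strand. The ETS motif CCGGAAG was found in 19 of 49 members (38.8%) and 9.93% of all genes in the table, 9 of 30 in the large and 10 of 19 in the small subunit. The NRF2-type antioxidant response core TGACNNNGC was found in 8 of 49 (16.3%) and 14.0% of all genes, the E-box CACGTG in 5 (10.2%) and 8.09%, the YY1-type AAGATGG in 5 (10.2%) and 7.28%, and TATAAA in 5 (10.2%) and 9.77%. The pyrimidine motif CTTTCC within 50 bases of the start on the gene's strand, searched after the first results were seen, was found in 12 (24.5%) and 5.43%. It lay in 10 of 30 large and 2 of 19 small subunit members, so a split by it is also largely a split by subunit. The 11 passing members with it were all lower, with a median of −0.046. Of the 35 without it, 25 were lower, with a median of −0.031. Of the passing members, the 7 with the antioxidant response core had a median difference of −0.099, with 6 lower, and the 39 without it −0.031, with 30 lower. The 10 with a TOP-like start had a median of −0.024 and the 36 without −0.043. A match is a run of letters and not a shown binding site.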

How the data were processed

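Per the labels' protocols, RNA of each KSL pool was extracted (Qiagen RNeasy micro kit), amplified (NuGEN Ovation) and measured on an Affymetrix Mouse Gene ST 1.0 array. Amplifying little RNA can narrow the difference of a gene. The authors deposited log2 intensities by probe set; that the base is 2 was read from the values. The submitters' processing notes name Partek without a version, and no account of background correction, normalization or probe summary is given in the sources used here. Sorted from low to high, the 2 arrays lay within 0.0866 of each other at every rank, so the arrays may have been brought to 1 distribution, which would hide a shift common to all genes. At levels of 11 or more the sorted values of the array labelled knockout were lower by a median gap of −0.029, beside which the members' median of −0.047 is to be read.

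Of 28853 probe sets, 21789 had 1 gene symbol in the platform annotation, 1621 had several and 5443 had none. Probe sets of a gene were averaged, and a gene passed the filter when its mean of both arrays reached 6.57, the median over genes. Differences were taken on the deposited log2 values with Python 3.11.15, numpy 2.4.6, pandas 2.3.3, statsmodels 0.14.6 (loess, span 0.4) and matplotlib 3.10.9. With 1 array per genotype no test was possible, so genes were counted past 1.2-fold and 1.5-fold. The counting was tested on simulated data.

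The genes named were the 5 highest and 5 lowest past the filter in each subunit, members past 1.5-fold, the stalk genes and Rpsa, the paralogs with their parents, Diamond-Blackfan and 5q- genes with Rpl23, and the 2 highest and 2 lowest of each related list; others were named after their values were seen, as the text says or as examples of probe sets, snoRNA hosts and markers. The members and lists were chosen with earlier results of these data known. The level of 11, the CTTTCC search, the comparisons beside snoRNA hosts and several-symbol probe sets, and the count of identical probe sets once were chosen after seeing the data. Alternatives were median centring, quantile normalization, loess on level, the probe set of highest mean, no filter, a filter at the 75th percentile (8.07), no paralogs, several-symbol probe sets added, the mean over members, and the largest member left out.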

Additional observations from a re-analysis of the deposited data

How the results depend on the processing

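The median over the ribosomal protein genes stayed below 0 under every alternative, from −0.055 to −0.013, that of the large subunit from −0.064 to −0.020, that of the small subunit from −0.050 to −0.00092, and large minus small from −0.044 to −0.0049. Members above 0 numbered 10 as reported, 18 after median centring and 22 after quantile normalization. Members at least 1.2-fold lower numbered 2 as reported and 1 after median centring, quantile normalization, loess, with the probe set of highest mean, without the paralogs and among members at a level of 11 or more. The number was 3 when no filter on level was used. With no filter on level 1 member, Rpl10l, was at least 1.5-fold lower, and with several-symbol probe sets added 1 gene, Rpl31, was at least 1.2-fold higher. Of 33 named genes, the sign turned for 4 after median centring, 5 after quantile normalization, 4 after loess and 1 with the probe set of highest mean. The spread between animals was not measured, so the error of these medians is unknown. No paired analysis was possible because each genotype had 1 array, and replicate numbers only name them.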
